A study of Mus musculus with 8 samples.

Results

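Eicosanoids are lipid mediators that cells make from arachidonic acid, and 10 genes for the enzymes of their synthesis were examined in mouse peritoneal macrophages. The genes are Pla2g4a, Ptgs1, Ptgs2, Ptges, Hpgds, Tbxas1, Alox5, Alox5ap, Ltc4s and Alox15. They were found by their symbols among the 55801 genes of the expression table, each symbol stood on a single row, and all 10 were above the filter on low values, a mean of at least 1 TPM (a length-scaled unit of expression) over the 8 samples. The cells came from C57BL/6 mice whose abdominal cavity had been inflamed with thioglycollate, a broth that draws monocytes in, and were cultured before treatment. The NC group received the vehicle DMSO. The LPS group received lipopolysaccharide, the cell wall component of Gram-negative bacteria, at 100 ng/ml for 4 h. The C498 group received the small molecule C498 at 15 µM, added 0.5 h before the time of challenge. The study describes C498 as an inhibitor of JAK/STAT and NFκB signaling. The C498+LPS group received C498 and then LPS at those doses. Each group had 2 samples. Nothing in the sources used here says whether the samples of a group came from separate animals, so the p-values measure only the spread between these samples, which may be technical.

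Cytosolic phospholipase A2 releases arachidonic acid from membrane phospholipids. The cyclooxygenases COX-1 (Ptgs1) and COX-2 (Ptgs2) turn it into the unstable prostaglandin H2, which terminal synthases convert into prostaglandin E2, prostaglandin D2, thromboxane A2 or prostacyclin. 5-lipoxygenase, helped by its activating protein, makes leukotriene A4 from the same substrate, and leukotriene C4 synthase joins that product to glutathione. Macrophages carry both branches, and COX-2 with the microsomal prostaglandin E synthase is the classic inducible pair of the inflammatory response.

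TPM divides reads by gene length and scales every sample to the same total, so levels of different genes can be set side by side, but the number of reads behind a value is unknown. Between 17528 and 18975 genes were above 0 in a sample. Changes are differences of log2(TPM + 1), fitted with limma over the 12189 genes above the filter. A gene was called when its fold change was at least 2 and its Benjamini-Hochberg adjusted p at most 0.05. Adding 1 draws the changes of low genes towards 0. Fold values other than the threshold of 2 are ratios of mean TPM, without the added 1. An exact permutation test (two-sided) of 2 samples against 2 cannot give a p below 0.3333, so single values are given with their spread and the limma result. All 10 macrophage markers were above the filter, and their summed level was 21216 to 21394 TPM in NC, 18575 to 19154 in LPS, 16506 to 16678 in C498 and 12813 to 14616 in C498+LPS. Lyz2 alone made up 61.1% to 75.3% of that sum, and without it the other 9 markers summed to 5232 to 5405 TPM in NC, 5495 to 5785 in LPS, 5091 to 5099 in C498 and 4983 to 5374 in C498+LPS. Cd68, between 2208 and 2913 TPM in every sample, and Cd14, at 235 and 252 TPM in NC and 1797 and 1794 in C498+LPS, hold much of the remainder. In C498+LPS vs LPS 9 of the 10 markers were lower, 6 of them with an adjusted p of at most 0.05, among them Adgre1 (-0.92, adjusted p = 0.0047), Csf1r (-0.91, adjusted p = 0.015) and C1qa (-0.88, adjusted p = 0.0092). The summed level of 5 fibroblast markers was 150 to 200 TPM in the NC and LPS samples and 618 to 911 TPM in the samples with C498. In bulk RNA, fewer cells of a type and less RNA per cell cannot be told apart.

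Before any stimulus the most abundant of the 10 transcripts was Alox5ap, at a mean of 550 TPM in NC, followed by Tbxas1 at 58.2 TPM. Pla2g4a, Ptges, Ptgs1 and Hpgds came next, with means between 16.0 and 22.5 TPM, and neighbours in that order overlapped between samples. Ltc4s, Ptgs2, Alox5 and Alox15 were lowest, at means of 2.77 to 4.72 TPM, and again each overlapped with the next. After LPS, with or without C498, Ptgs2 was the most abundant. In LPS the order was Ptgs2, Alox5ap, Ptges and Tbxas1 at means of 487, 353, 268 and 33.4 TPM, with no overlap between neighbours. In C498+LPS it was Ptgs2, Alox5ap and Ptges at means of 788, 268 and 128 TPM. C498 alone left Alox5ap at the top with 384 TPM and put Ptgs2 next with 78.8 TPM.

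**Figure D1:**
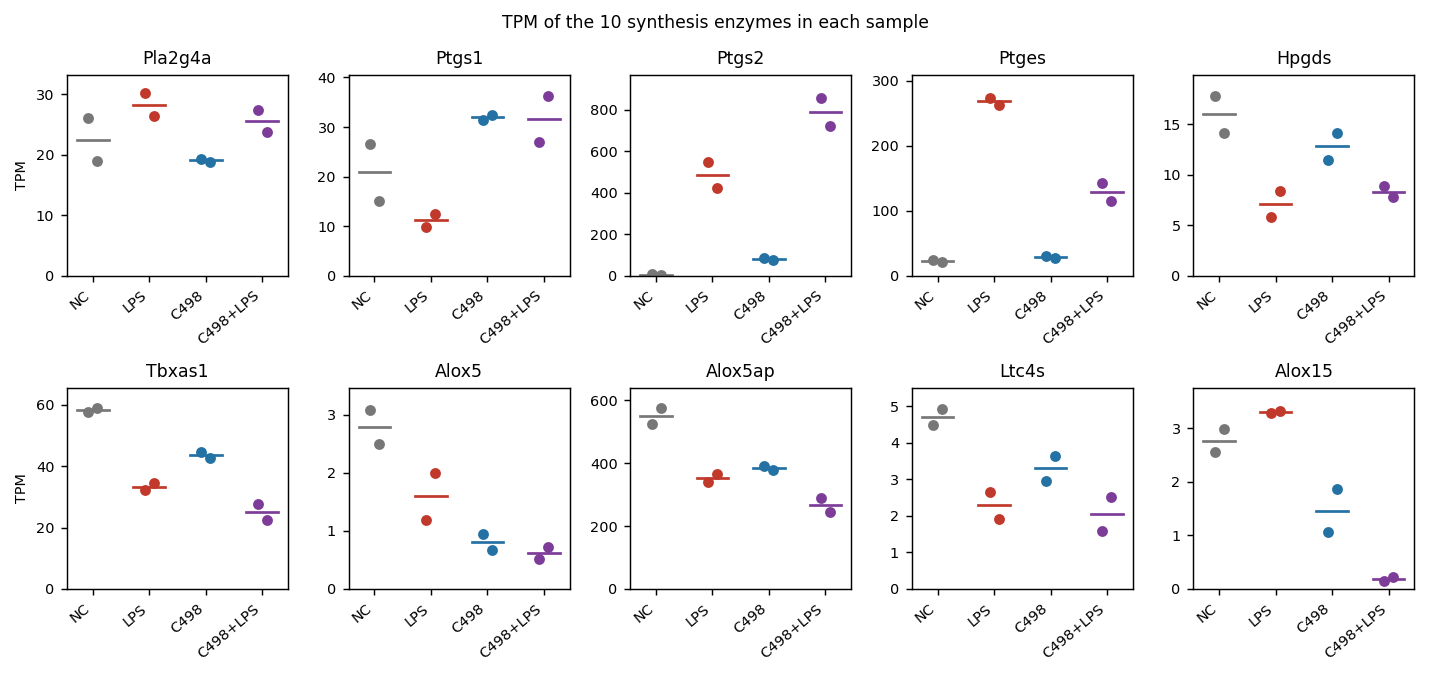
Each panel plots 1 gene, with TPM on a linear vertical axis that starts at 0 and the 4 groups along the horizontal axis. Points are the 2 samples of a group and lines are their means. Ptgs2 is highest in C498+LPS, Ptges in LPS, and Alox15 is near 0 only in C498+LPS (0.15 and 0.23 TPM).

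LPS against NC asks how the pathway answers to the bacterial stimulus alone. Of the 10 genes, Ptgs2 and Ptges were called higher and Hpgds was called lower, where 5.55% of all tested genes were called higher and 6.68% lower. C498 against NC asks what the compound does without LPS. There Ptgs2 was called higher, against a background of 5.64% of tested genes, and Alox5 was called lower, against 1.36%. C498+LPS against LPS asks what the compound changes in stimulated cells. Ptgs1 was called higher, with 5.39% of tested genes, and Ptges and Alox15 were called lower, with 2.18% of tested genes. C498+LPS against C498 gives the LPS response in the presence of the compound. Ptgs2 and Ptges were called higher (2.52% of tested genes) and Alox15 lower (3.13%). The interaction, which compares the LPS response with and without C498, was called for Ptgs2 and Ptges, both in the negative direction (0.394% of tested genes), and for no member in the positive direction (0.0738%). The comparisons share samples, so their counts are not independent of each other.

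**Figure D2:**
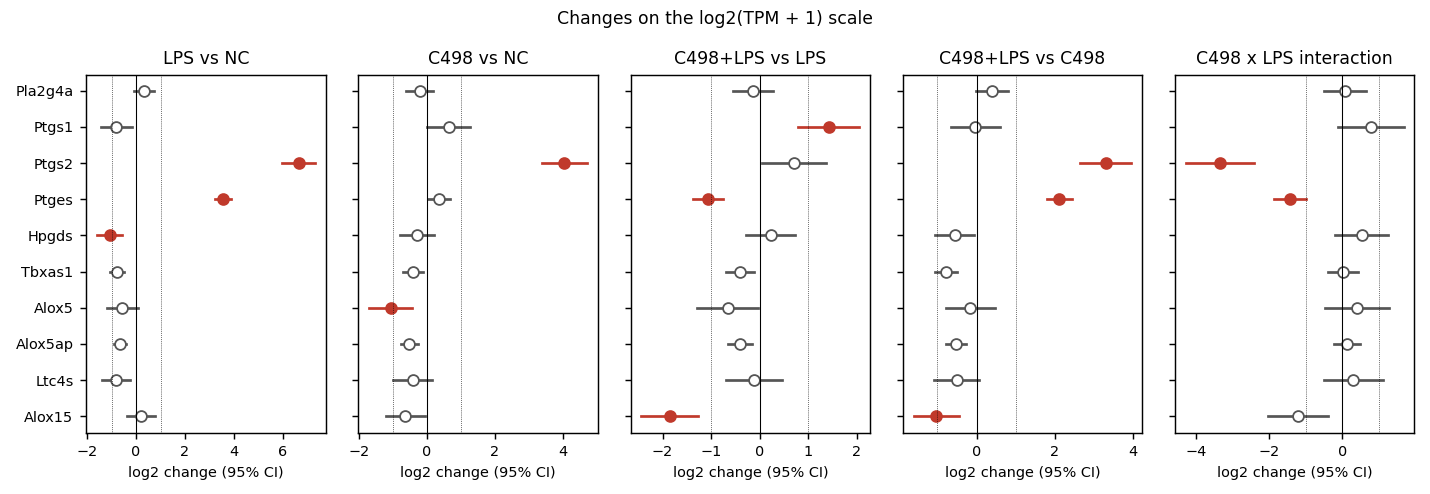
Log2 change of each enzyme gene (horizontal axis, differences of log2(TPM + 1), a separate scale in each panel) in the 4 comparisons and the interaction, with bars for the 95% confidence interval from limma. Filled red points were called, dotted lines mark a fold change of 2. Ptgs2 has the widest range, from 6.64 in LPS vs NC to -3.34 for the interaction.

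The median log2 change over all tested genes was -0.17 with LPS alone (LPS vs NC) and -0.18 with LPS after C498 (C498+LPS vs C498). It was 0.01 for C498 in both unstimulated and stimulated cells. For the 10 enzyme genes the medians were -0.60 and -0.33 for LPS, and -0.35 and -0.27 for C498, in the same order. Negative changes outnumbered positive ones in each of the 4, with 6 of 10 genes lower after LPS alone and 7 of 10 lower in each of the other comparisons, most of them without a call.

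Ptgs2 encodes COX-2, the inducible cyclooxygenase. Its level was 5.64 and 2.54 TPM in NC, 549 and 425 TPM in LPS, 83.8 and 73.8 TPM in C498, and 856 and 720 TPM in C498+LPS. The 4 groups did not overlap. LPS raised the mean 119-fold (log2 change 6.64 ± 0.28 SE, adjusted p = 1.2e-05), which placed Ptgs2 at rank 3 of the 12189 tested genes by size of increase. C498 without LPS raised it 19.3-fold (4.04 ± 0.28, adjusted p = 0.00031), at rank 13. Both calls were kept in every leave-one-out fit, with log2 changes of 6.19 to 7.09 and of 3.58 to 4.49. In C498+LPS the mean was 1.62 times that in LPS, but this difference was not called (0.70, 95% confidence interval 0.04 to 1.36, adjusted p = 0.14). LPS still raised Ptgs2 in the presence of C498 (3.30 ± 0.28, adjusted p = 0.00064).

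Whether the LPS response of Ptgs2 was smaller or larger with C498 depended on the scale. As a ratio it was smaller, from a higher level before LPS, and the interaction was -3.34 ± 0.40 (adjusted p = 0.025). In TPM the mean rose by 483 without C498 and by 709 with it. The interaction call was lost without the filter on low values (adjusted p = 0.094), without the variance trend (adjusted p = 0.078) and when any LPS, C498 or C498+LPS sample was left out. It was kept without either NC sample, and the leave-one-out values ran from -3.79 to -2.88 with adjusted p up to 0.17.

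Over the 8 samples, the tested genes whose log2(TPM + 1) was most like that of Ptgs2 were Socs3, Tnfaip3, an assembled transcript without a symbol, Stk40 and Cxcl2. Pearson's r was 0.9968, 0.9967, 0.9961, 0.9957 and 0.995 for them, which is a description over samples that share the 4 groups. Cxcl2, which encodes a neutrophil-attracting chemokine, had 41.5 and 29.5 TPM in NC, 2678 and 2680 in LPS, 755 and 646 in C498, and 4235 and 3503 in C498+LPS. Socs3, a feedback inhibitor of cytokine receptor signaling, had 65.5 and 61.8 TPM in NC, 283 and 254 in LPS, 168 and 156 in C498, and 352 and 303 in C498+LPS. Both had the order of Ptgs2, with NC lowest, then C498, LPS and C498+LPS.

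Ptgs2 lies at chr1:150100031-150108227 on the plus strand of GRCm38 (GENCODE M21), and Ptges at chr2:30889471-30929863 on the minus strand. The 250 bases before their RefSeq transcription starts (assembly GRCm38.p6) are shown because these genes gave the largest increases with LPS and differed in their response to C498. Capitals mark matches to motifs on either strand. The Ptgs2 window is chr1:150099781-150100030 and the Ptges window is chr2:30903298-30903547. The Ptges window lies inside the GENCODE interval of its gene, while the Ptgs2 window lies just before that of its gene. Both are written 5′ to 3′ on the strand of the gene.
Ptgs2: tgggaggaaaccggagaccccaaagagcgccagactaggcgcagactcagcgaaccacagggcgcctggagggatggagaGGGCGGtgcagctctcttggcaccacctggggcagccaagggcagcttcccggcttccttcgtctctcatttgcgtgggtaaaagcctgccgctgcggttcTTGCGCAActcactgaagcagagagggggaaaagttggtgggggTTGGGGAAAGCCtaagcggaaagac
Ptges: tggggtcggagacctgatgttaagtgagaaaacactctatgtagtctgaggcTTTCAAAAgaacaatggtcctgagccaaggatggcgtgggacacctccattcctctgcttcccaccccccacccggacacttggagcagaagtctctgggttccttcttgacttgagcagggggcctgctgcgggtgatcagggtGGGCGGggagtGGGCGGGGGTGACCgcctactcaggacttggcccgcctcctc

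The search ran from 250 bases before to 50 after the start, on both strands, in 8 of the 10 genes (9 windows) and in all 32851 windows of the RefSeq table. The NF-kappaB pattern GGGNNNNNCC matched in Ptgs2, Ptges, Ptgs1 and Alox5, and in 50.8% of all windows. The C/EBP pattern TTNNGNAA matched in Ptgs2, Ptges, Pla2g4a and Hpgds, and in 40.7% of all windows. In Ptgs2 a C/EBP match and the NF-kappaB match overlap, and in Ptges the NF-kappaB match overlaps a GC box. The GC box GGGCGG matched in Ptgs2, Ptges and Alox5 and in 35.7% of all windows. The core of the cAMP response element, TGACG, matched among these genes only in Ptgs2, at bases 14 to 18 after the start, and in 20.8% of all windows. The full element TGACGTCA matched in none of the 9 windows and in 1.79% of all. The TATA box TATAAA matched in Pla2g4a and Tbxas1 (13.6% of all windows) and the AP-1 pattern TGANTCA in Tbxas1 (7.81%). These are matches of letters and no measure of binding.

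Ptges encodes microsomal prostaglandin E synthase-1, which makes prostaglandin E2 from the product of COX-2. It measured 23.7 and 20.3 TPM in NC, 274 and 262 TPM in LPS, 29.6 and 27.6 TPM in C498, and 142 and 114 TPM in C498+LPS. The C498+LPS samples lay between those of C498 and those of LPS. LPS raised the mean 12.2-fold (log2 change 3.55 ± 0.13 SE, adjusted p = 6.8e-06). C498 alone gave 1.30 times the NC level, without a call (0.36, 95% confidence interval 0.05 to 0.68, adjusted p = 0.11). In stimulated cells C498 lowered Ptges 2.09-fold (-1.07 ± 0.13, adjusted p = 0.0030), and this change stayed under a fold of 2 with quantile normalization (-0.90) and without C498+LPS replicate 2 (-0.91, adjusted p = 0.025). With C498 present, LPS raised Ptges 4.49-fold (2.12 ± 0.13, adjusted p = 0.00017).

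The interaction for Ptges was -1.43 ± 0.19 (adjusted p = 0.035), and in TPM the mean rose by 246 without C498 and by 99.7 with it, so the response was smaller with C498 on both scales. The adjusted p was 0.094 without the filter on low values and 0.099 without the variance trend. Among the leave-one-out fits the interaction was called only without NC replicate 1, and the values ran from -1.59 to -1.27 with adjusted p up to 0.21.

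The joint levels of COX-2 and the synthase after it shifted with both agents. The ratio of Ptgs2 to Ptges in TPM was 0.24 and 0.12 in NC, 2.00 and 1.62 in LPS, 2.83 and 2.68 in C498, and 6.01 and 6.31 in C498+LPS. The groups did not overlap in this ratio. In unstimulated samples C498 went with a mean Ptgs2 19.3-fold higher and a mean Ptges 1.30-fold higher. In stimulated samples it went with a mean Ptgs2 1.62-fold higher and a mean Ptges 2.09-fold lower.

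**Figure D3:**
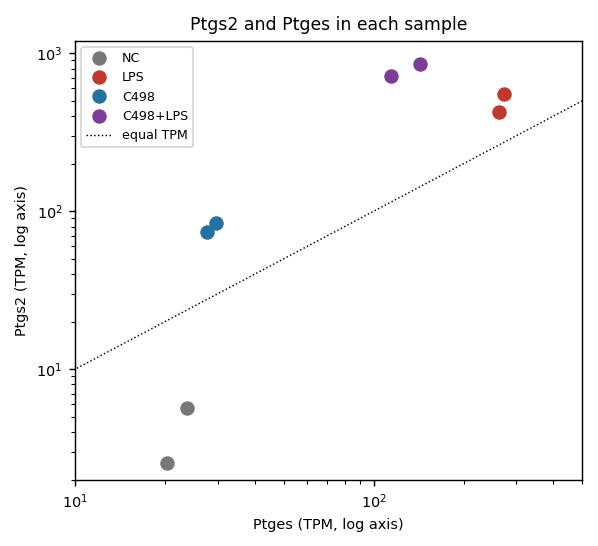
Ptgs2 (vertical) against Ptges (horizontal) in TPM on log axes, 1 point per sample, with a dotted line where both are equal. The NC samples lie below the line, and all others above it. LPS samples have the highest Ptges (262 and 274 TPM) and C498+LPS samples the highest Ptgs2 (720 and 856 TPM).

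Pla2g4a encodes cytosolic phospholipase A2 alpha and lies at chr1:149829618-149961290, 138.7 kb from Ptgs2. Its level was 26.1 and 18.9 TPM in NC, 30.2 and 26.4 TPM in LPS, 19.3 and 18.8 TPM in C498, and 27.4 and 23.7 TPM in C498+LPS. No comparison was called, and the largest change was 0.40 in C498+LPS vs C498 (95% confidence interval -0.0040 to 0.81, adjusted p = 0.16). Over all 8 samples, in which Ptgs2 ran from 2.54 to 856 TPM, Pla2g4a ran from 18.8 to 30.2 TPM.

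Ptgs1, the constitutive cyclooxygenase COX-1, is at chr2:36230426-36252272. It measured 26.7 and 15.2 TPM in NC, 9.87 and 12.5 TPM in LPS, 31.5 and 32.4 TPM in C498, and 27.0 and 36.3 TPM in C498+LPS. The LPS samples were the lowest and the samples with C498 the highest. C498+LPS exceeded LPS 2.83-fold (log2 change 1.42 ± 0.27 SE, adjusted p = 0.013), a call that was lost without LPS replicate 1 (adjusted p = 0.10), LPS replicate 2 (adjusted p = 0.066) or C498+LPS replicate 2 (adjusted p = 0.11). The values of LPS vs NC (-0.80, adjusted p = 0.060) and C498 vs NC (0.64, adjusted p = 0.15) were not called. The NC samples stand apart from each other, and each decides a call here. Without NC replicate 2, Ptgs1 was called lower after LPS (-1.19, adjusted p = 0.014), and without NC replicate 1 it was called higher with C498 (1.03, adjusted p = 0.025). COX-2 made up 17.5% and 14.4% of the summed TPM of both cyclooxygenases in NC, 98.2% and 97.1% in LPS, 72.7% and 69.5% in C498, and 96.9% and 95.2% in C498+LPS.

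Markers of other cells moved with C498 in the same samples. All 5 fibroblast markers (Col1a1, Col1a2, Col3a1, Dcn and Pdgfra) were above the filter, and their sum was 150 to 192 TPM in NC, 176 to 200 in LPS, 633 to 750 in C498 and 618 to 911 in C498+LPS. The sum of 5 mesothelial markers, 4 of them above the filter, was 4.04 to 5.25 TPM in NC, 4.78 to 5.80 in LPS, 15.3 to 22.1 in C498 and 16.2 to 26.3 in C498+LPS. Ptgis, the prostacyclin synthase, which is known from vessel wall and stromal cells, was at 18.5 and 15.6 TPM in NC, 20.3 and 17.2 in LPS, 53.6 and 62.0 in C498, and 56.5 and 92.1 in C498+LPS. It rose with C498 in unstimulated cells (1.71 ± 0.23, adjusted p = 0.0046) and in stimulated cells (1.90 ± 0.23, adjusted p = 0.0026). The former call was lost without C498 replicate 2 (adjusted p = 0.057). The part of these marker levels in the Ptgs1 and Ptgis results was not tested.

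**Figure D4:**
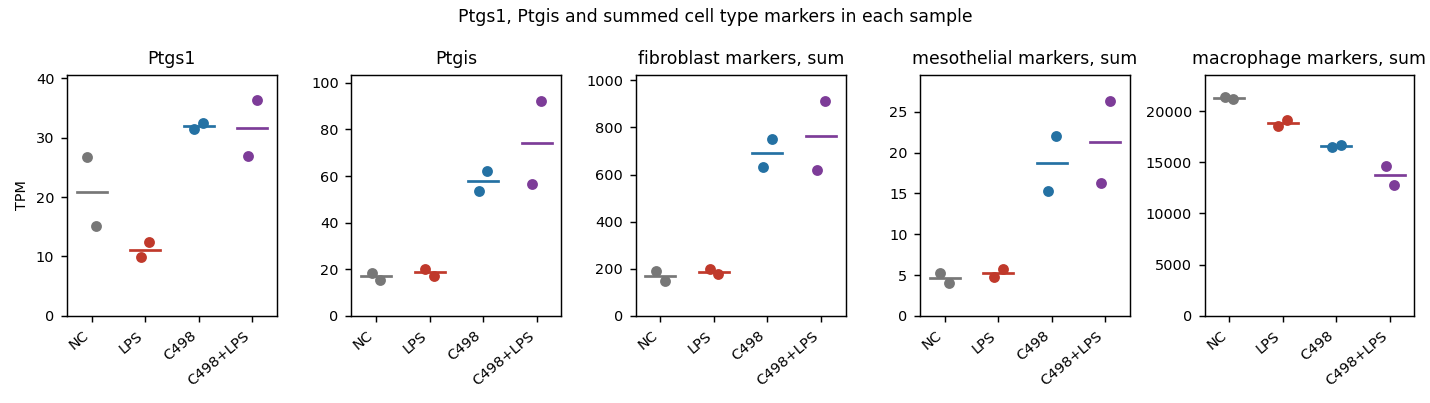
TPM of Ptgs1 and Ptgis and the summed TPM of the fibroblast, mesothelial and macrophage marker lists in each sample, on linear axes that start at 0, with lines at the group means. Ptgis and the fibroblast and mesothelial sums are higher in all 4 samples with C498 than in any without it. The macrophage sum, most of it Lyz2, is lowest in C498+LPS (12813 to 14616 TPM).

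The synthases for prostaglandin D2 and thromboxane were lower after LPS, where Ptges was higher. Hpgds, hematopoietic prostaglandin D synthase, at chr6:65117293-65144908, had 17.9 and 14.1 TPM in NC, 5.77 and 8.39 TPM in LPS, 11.5 and 14.2 TPM in C498, and 8.87 and 7.82 TPM in C498+LPS. LPS lowered it 2.26-fold (log2 change -1.08 ± 0.22 SE, adjusted p = 0.0095). The call did not hold once samples were centred on their median gene (-0.92) or quantile normalized (-0.88), nor without NC replicate 1 (-0.93, adjusted p = 0.040) or LPS replicate 1 (-0.85, adjusted p = 0.070), nor with only the NC and LPS groups in the fit (adjusted p = 0.067). With C498 the LPS difference was -0.56 (adjusted p = 0.12), and C498 gave no called difference with or without LPS. Mast cells also use this synthase, and the sum of 9 mast cell markers was 12.4 to 14.1 TPM in NC, 25.7 to 28.1 in LPS, 16.8 to 22.2 in C498 and 21.4 to 32.7 in C498+LPS. Hdc carried the higher sum after LPS, with 2.39 and 2.92 TPM in NC and 18.0 and 15.8 in LPS (log2 change 2.29, adjusted p = 0.00033). Without it the other 8 markers summed to 9.50 to 11.7 TPM in NC, 9.88 to 10.1 in LPS, 14.4 to 18.7 in C498 and 10.96 to 24.0 in C498+LPS. The part of mast cells in the Hpgds result was not tested.

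Tbxas1 encodes thromboxane A synthase, at chr6:38875404-39084585. It measured 57.6 and 58.8 TPM in NC, 32.2 and 34.5 TPM in LPS, 44.6 and 42.5 TPM in C498, and 27.6 and 22.5 TPM in C498+LPS, with no overlap between any 2 groups. LPS samples were lower than NC samples by less than a fold of 2 (-0.79 ± 0.12, adjusted p = 0.0038), and C498+LPS samples were lower than C498 samples by nearly the same amount (-0.78 ± 0.12, adjusted p = 0.0081). The latter did not pass 0.05 without C498 replicate 1 (adjusted p = 0.075), without C498 replicate 2 (adjusted p = 0.061) or after centring (-0.57, adjusted p = 0.056). The interaction was 0.004 (95% confidence interval -0.41 to 0.42, adjusted p = 0.996). C498 gave -0.41 both without LPS (adjusted p = 0.066) and with it (adjusted p = 0.066). Platelets are rich in this enzyme, and of 6 platelet markers only Pf4 was above the filter, at 634 and 675 TPM in NC, 612 and 702 in LPS, 354 and 377 in C498, and 260 and 222 in C498+LPS. The other platelet markers were near 0, with means over the 8 samples from 0.0075 TPM (Gp1bb) to 0.465 TPM (Ppbp). The part of platelets in the Tbxas1 result was not tested.

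In the leukotriene branch, the transcript of the activating protein far exceeded that of the enzyme. Alox5ap, at chr5:149264767-149288153, had 525 and 576 TPM in NC, 340 and 367 TPM in LPS, 391 and 378 TPM in C498, and 290 and 246 TPM in C498+LPS. The NC samples were highest and the C498+LPS samples lowest. The differences passed an adjusted p of 0.05 in the 4 comparisons while staying below a fold of 2, with log2 changes of -0.64 in LPS vs NC (adjusted p = 0.0045), -0.52 in C498 vs NC (adjusted p = 0.020), -0.40 in C498+LPS vs LPS (adjusted p = 0.041) and -0.52 in C498+LPS vs C498 (adjusted p = 0.018). In LPS vs NC the adjusted p rose to 0.085 with centring. In C498+LPS vs LPS it was above 0.05 with no filter, centring, quantile normalization, no variance trend or only the groups compared, and without LPS replicate 1 (0.12), LPS replicate 2 (0.21), either C498 sample (0.086) or C498+LPS replicate 2 (0.20). In C498 vs NC it was above 0.05 without NC replicate 2 (0.073), C498 replicate 1 (0.11) or C498 replicate 2 (0.12), with no variance trend (0.054) and with only the groups compared (0.060). In C498+LPS vs C498 it was above 0.05 without C498 replicate 1 (0.12), C498 replicate 2 (0.10) or C498+LPS replicate 2 (0.091), with no variance trend (0.052) and with centring (-0.31, adjusted p = 0.29). Of the 10 macrophage markers, 6 (Lyz2, Csf1r, Fcgr1, Itgam, C1qa and C1qb) also had their highest mean in NC and their lowest in C498+LPS, and 1 (Cd14) had the reverse. The part of macrophage content in the Alox5ap result was not tested.

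Alox5, 5-lipoxygenase itself, at chr6:116410077-116461178, was at 3.08 and 2.49 TPM in NC, 1.19 and 2.00 TPM in LPS, 0.95 and 0.67 TPM in C498, and 0.51 and 0.73 TPM in C498+LPS. All 4 samples with C498 were lower than all samples without it. The changes in LPS vs NC (-0.56, adjusted p = 0.16) and in C498+LPS vs LPS (-0.67, adjusted p = 0.14) were not called. In unstimulated cells the mean TPM was 3.44-fold lower with C498, and the log2(TPM + 1) change of -1.06 ± 0.27 SE was called (adjusted p = 0.038). That call was lost without the filter on low values (adjusted p = 0.067), with only the NC and C498 groups in the fit (adjusted p = 0.066), and without NC replicate 1 (adjusted p = 0.059), NC replicate 2 (adjusted p = 0.061), C498 replicate 1 (adjusted p = 0.10) or C498 replicate 2 (adjusted p = 0.14). The ratio of Alox5ap to Alox5 in TPM was 171 to 285 without C498 and 337 to 569 with it. Neutrophils are rich in both genes, and the sum of 8 neutrophil markers was 208 to 228 TPM in NC, 187 to 209 in LPS, 117 to 126 in C498 and 115 to 140 in C498+LPS. S100a8 and Mmp8 made up most of that sum, Ngp was listed at 0 in all samples, and Ly6g was above 0 only in C498 replicate 2. S100a9 was 0 in the NC and LPS samples and at most 0.86 TPM with C498, and Cxcr2 was at most 0.1 TPM. The 4 tested markers of this list were all lower in C498 vs NC. The part of neutrophils in the Alox5 result was not tested.

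Ltc4s, leukotriene C4 synthase, at chr11:50236461-50238616, had 4.5 and 4.93 TPM in NC, 2.66 and 1.92 TPM in LPS, 2.95 and 3.65 TPM in C498, and 1.58 and 2.51 TPM in C498+LPS. LPS samples were lower than NC samples (-0.80 ± 0.24, adjusted p = 0.043), under a fold of 2 on this scale. The adjusted p was above 0.05 without any 1 of the NC, LPS or C498 samples (0.068 to 0.20), and with no filter (0.12), centring (0.10), quantile normalization (0.15) or only the groups compared (0.086). With a pseudocount of 0.1 in place of 1 the change was -1.03 and the gene was called (adjusted p = 0.050). The comparisons between C498 samples and their counterparts gave -0.41 without LPS (adjusted p = 0.28) and -0.12 with it (adjusted p = 0.79).

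Alox15, the 12/15-lipoxygenase of resident peritoneal macrophages and eosinophils, lies at chr11:70344152-70352031. Its level was 2.55 and 2.98 TPM in NC, 3.29 and 3.32 TPM in LPS, 1.06 and 1.86 TPM in C498, and 0.15 and 0.23 TPM in C498+LPS. The groups did not overlap, and the C498+LPS samples were far below the rest. The mean TPM in C498+LPS was 17.4-fold below that in LPS, a ratio to a value near 0. The log2(TPM + 1) change was -1.86 ± 0.25 SE (adjusted p = 0.0035), at rank 52 of the 12189 tested genes by size of decrease. The log2 change was -3.57 with a pseudocount of 0.1, and the call was kept in all 8 leave-one-out fits (-1.90 to -1.81). With a filter at a mean of 5 TPM the gene is not tested. C498 alone gave -0.63 (95% confidence interval -1.21 to -0.05, adjusted p = 0.13).

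LPS gave opposite differences of Alox15 with and without C498. LPS samples exceeded NC samples by 0.20 on the log2 scale (adjusted p = 0.60), which is no call, while C498+LPS samples were below C498 samples by a called amount (-1.03 ± 0.25, adjusted p = 0.033). The latter call was lost without the filter (adjusted p = 0.071), with centring (-0.81, adjusted p = 0.098), with quantile normalization (-0.90, adjusted p = 0.062) and in 6 of 8 leave-one-out fits, being kept only without either NC sample. Without C498 replicate 2 the change was -0.79 (adjusted p = 0.14). The test of the difference itself, the interaction, gave -1.22 ± 0.35 (adjusted p = 0.27).

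Markers of the cells known for Alox15 were summed in the same samples. The sum of 8 resident peritoneal macrophage markers, 5 of them above the filter, was 72.2 to 122 TPM in NC, 34.4 to 41.1 in LPS, 69.3 to 71.1 in C498 and 30.1 to 31.2 in C498+LPS, with Cd93 as the largest part in every sample. Without Cd93 the sum was 21.8 to 23.6 TPM in NC, 17.1 to 21.6 in LPS, 23.4 to 25.7 in C498 and 14.8 to 19.1 in C498+LPS. In C498+LPS vs LPS, 4 of the 5 tested markers were lower without passing an adjusted p of 0.05, with log2 changes from -0.79 (Timd4) to -0.41 (Cd93). The other, Gata6, was higher (1.22, adjusted p = 0.027). None of the 6 eosinophil markers was above the filter. Their sum was 2.18 to 2.21 TPM in NC, 1.58 to 1.76 in LPS, 0.75 to 1.44 in C498 and 0.67 to 0.92 in C498+LPS. Epx, the eosinophil peroxidase, was listed at 0 in all samples. The part of these cells in the Alox15 result was not tested.

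The rest of the eicosanoid system was followed in 60 genes, in 5 lists of enzymes for phospholipid release and reacylation, other prostanoid synthases, other lipoxygenases and leukotriene enzymes, inactivation and transport, and receptors. Of these, 59 were in the table and 36 above the filter. In LPS vs NC 3 of the 36 were called higher and 5 lower, beside 5.55% and 6.68% of all tested genes. In C498 vs NC 1 was called higher and 3 lower (5.64% and 1.36% of all tested genes). In C498+LPS vs LPS the counts were 2 and 4 (5.39% and 2.18%), and in C498+LPS vs C498 1 and 3 (2.52% and 3.13%). For the interaction limma called 0 of the 36, with 7 at an unadjusted p under 0.05. Over all tested genes 0.0738% were called positive and 0.394% negative, and 11.1% had an unadjusted p under 0.05. The 36 had a median log2 change of -0.29 with LPS alone and of -0.19 with C498 in stimulated cells, beside -0.17 and 0.01 over all tested genes.

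Among the 12 tested genes for phospholipid release, Pla2g15 and Daglb, a lysosomal phospholipase and a diacylglycerol lipase, fell with LPS. Pla2g15 went from 64.3 and 61.3 TPM in NC to 13.4 and 12.6 in LPS (log2 change -2.19, adjusted p = 4.3e-05), and from 37.8 and 44.7 in C498 to 14.2 and 13.3 in C498+LPS (-1.51, adjusted p = 0.00052). Daglb went from 33.7 and 24.8 TPM to 5.25 and 5.45 (-2.24, adjusted p = 0.00016) without C498 and changed by -1.53 with it (adjusted p = 0.0020). Lpcat2, which makes platelet-activating factor, rose from 43.3 and 39.1 TPM in NC to 90.6 and 82.8 in LPS (1.06, adjusted p = 0.0025), and was at 40.7 and 30.6 TPM in C498+LPS, below LPS (-1.27, adjusted p = 0.0023). In C498 alone it was at 21.5 and 21.0 TPM, below NC by less than a fold of 2 (-0.92, adjusted p = 0.0092). With C498 present, Lpcat2 was still higher after LPS, also by less than a fold of 2 (0.71, adjusted p = 0.021). Its rise with LPS came under a fold of 2 without NC replicate 2 (0.98) or LPS replicate 1 (0.99).

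Of the 6 tested prostanoid synthases outside the main group, Ptges2 was lower with C498 alone (-1.11, adjusted p = 0.032), a call kept in 1 of 8 leave-one-out fits, that without NC replicate 1. Without NC replicate 2 its change was -0.74 (adjusted p = 0.090). Lta4h, the hydrolase that makes leukotriene B4, had 67.3 and 55.6 TPM in NC and 37.8 and 31.6 in LPS (-0.80, adjusted p = 0.0050), under a fold of 2, and none of the 4 tested genes of its list was called in any comparison.

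Among the 7 tested genes for inactivation and transport, Ptgr2, a prostaglandin reductase, fell with LPS both without C498 (-1.23, adjusted p = 0.0037) and with it (-1.04, adjusted p = 0.014). The latter came under a fold of 2 after centring (-0.82) and was lost without any 1 of the C498 or C498+LPS samples (adjusted p of 0.056 to 0.11). Abcc1, which exports leukotriene C4, rose with LPS (1.23, adjusted p = 0.012), a call lost without NC replicate 2 (0.85) and without LPS replicate 1 (adjusted p = 0.087). Cyp4f18, an enzyme that inactivates leukotriene B4, was lower with C498 in unstimulated (-1.04, adjusted p = 0.020) and stimulated cells (-1.12, adjusted p = 0.013). The unstimulated call was lost without NC replicate 2 (-0.87), C498 replicate 1 (adjusted p = 0.075) or C498 replicate 2 (-0.90). The stimulated call was lost without either LPS sample (adjusted p = 0.096 and 0.072) or without C498+LPS replicate 2 (adjusted p = 0.084). Hpgd, the main prostaglandin dehydrogenase, had a mean of 0.45 TPM and was not tested.

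The receptors for prostaglandin E2 that act through cAMP were lower after LPS without C498. Ptger4 (EP4) went from 12.3 and 9.21 TPM in NC to 2.36 and 2.72 in LPS (-1.72, adjusted p = 0.0013), and Ptger2 (EP2) from 9.78 and 7.27 to 3.29 and 2.74 (-1.24, adjusted p = 0.0043, and -0.98 after quantile normalization). With C498 present neither was called for LPS (Ptger4 -0.48, adjusted p = 0.16, and Ptger2 -0.16, adjusted p = 0.63), and the interaction did not pass for either (adjusted p = 0.17 and 0.23). In C498+LPS Ptger4 was at 6.26 and 7.15 TPM, above LPS (1.12, adjusted p = 0.012). That call was lost without LPS replicate 1 (adjusted p = 0.093), LPS replicate 2 (adjusted p = 0.070) or C498+LPS replicate 2 (adjusted p = 0.094), and after quantile normalization (0.96). Ptgir, the prostacyclin receptor, was lower in C498+LPS than in LPS (-1.06, adjusted p = 0.0095), and lost its call without LPS replicate 1 (adjusted p = 0.076), LPS replicate 2 (adjusted p = 0.071) or C498+LPS replicate 2 (-0.86). Fpr2, which binds lipoxin A4 as well as formyl peptides, had 208 and 191 TPM in NC, 612 and 564 in LPS, 77.5 and 68.6 in C498, and 184 and 149 in C498+LPS. It rose with LPS without C498 (1.56, adjusted p = 0.00020) and with it (1.17, adjusted p = 0.0016), and fell with C498 in unstimulated (-1.44, adjusted p = 0.00079) and stimulated cells (-1.82, adjusted p = 0.00050).

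**Figure D5:**
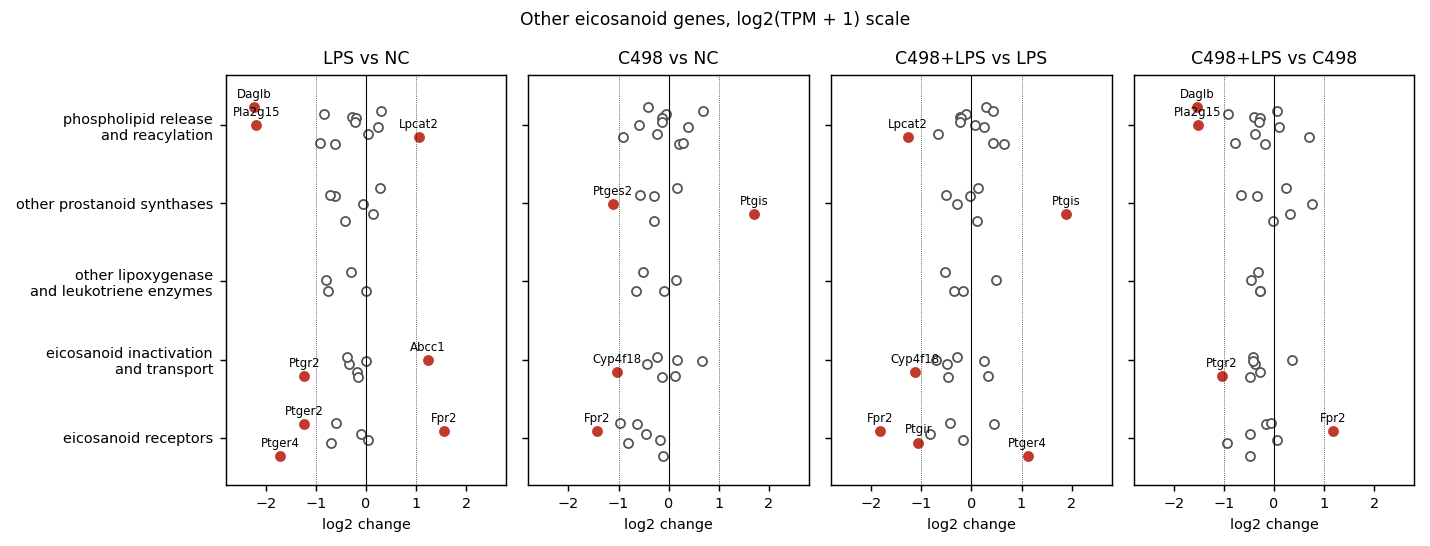
Log2 change (horizontal axis, log2(TPM + 1) scale) of the 36 tested genes of the 5 other lists in the 4 comparisons, 1 point per gene, spread vertically within its list for legibility. Filled red points with names were called and dotted lines mark a fold change of 2. Daglb and Pla2g15 are the lowest after LPS (-2.24 and -2.19), and Ptgis is the highest with C498 (1.71 and 1.90).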

How the data were processed

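RNA of peritoneal macrophages was sequenced on an Illumina NovaSeq. The authors processed the reads with fastp, HISAT2, StringTie and RSEM, and deposited a table of TPM values for each gene in each sample, together with group means, gene length and annotation. Neither the genome build nor the tool versions are given in the sources used here. Gene coordinates were taken from GENCODE M21 (GRCm38) by Ensembl identifier. The 8 sample columns were used and the authors' means were not.

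The members and lists were chosen with earlier results of these data known. Values were transformed as log2(TPM + 1). Genes with a mean of at least 1 TPM (12189) were fitted with limma 3.58.1 in R 4.3.3, in a model of all 8 samples with a mean for each group, with moderated variances that followed a trend on expression. P-values were adjusted over all tested genes (Benjamini-Hochberg). The fit was tested on simulated data. Named were all members, the listed genes called in any comparison, Lta4h, Hpgd and Ptger4, and the 5 genes most like Ptgs2. Depth is unknown. Alternatives were another pseudocount and other filters, centring, quantile normalization, no variance trend, only the groups compared, a replicate block, no fold threshold and leaving out each sample. For genes outside the 10 enzymes they were added after seeing the data. Figures were drawn with matplotlib 3.10.9.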

Additional observations from a re-analysis of the deposited data

Results flagged for a closer look

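The LPS response differed by test between cells with C498 and cells with vehicle for 2 genes, and Alox15 is listed for the direction of its samples. Ptgs2 was flagged by limma's test of the difference (-3.34 on the log2 scale, adjusted p = 0.025): LPS raised it in both settings, from 4.09 to 487 TPM without C498 and from 78.8 to 788 TPM with it. Ptges was flagged by the same test (-1.43, adjusted p = 0.035), with means of 22.0 and 268 TPM without C498 and 28.6 and 128 TPM with it. In TPM the mean of Ptgs2 rose by 483 without C498 and by 709 with it. Both interaction calls were lost without the filter on low values, without the variance trend and without some single samples. The leave-one-out values ran from -3.79 to -2.88 for Ptgs2 and from -1.59 to -1.27 for Ptges. Alox15 was flagged because both LPS samples lay above both NC samples while both C498+LPS samples lay below both C498 samples. Its difference between the responses was -1.22, and limma's test of it was not past the threshold (adjusted p = 0.27).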

How the results depend on the processing

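The members called in C498 vs NC numbered 2 (7.0% of all tested genes called), and 1 without the filter on low values (2.49%), with a mean of at least 5 TPM (6.30% of 8979 genes) or with only the groups compared (3.11%). The interaction gave 2 (0.468%), and 0 without the filter (0.0742%) and without the variance trend (0.0984%). Without the fold threshold LPS vs NC gave 6 of 10 (29.6% of all tested genes), C498 vs NC 3 (15.5%), C498+LPS vs LPS 4 (16.8%), C498+LPS vs C498 5 (16.2%) and the interaction 2 (0.492%). Leave-one-out counts were 1 to 2 in C498 vs NC (2.83% to 11.3% of all tested genes), 1 to 3 in C498+LPS vs LPS (3.86% to 7.84%), and 0 to 2 for the interaction (0.0738% to 0.755%). The other eicosanoid genes called in C498 vs NC numbered 4, and 2 without the filter or with only the groups compared. Leave-one-out gave 1 to 5 of them there and 3 to 6 in C498+LPS vs LPS.

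Of 775 values of members under alternatives, 713 kept their direction and their side of the thresholds, 42 lost a call, 3 gained one and 17 turned their direction. None of those 17 belonged to a call. They were the Tbxas1 interaction with a pseudocount of 0.1 (-0.0012), Alox5 in C498+LPS vs C498 after centring (0.055), Ptgs1 in the same comparison after centring (0.19) and quantile normalization (0.11), and leave-one-out values. The latter ranged from -0.14 to 0.15 for the Tbxas1 interaction, -0.24 to 0.18 for Ptgs1 in C498+LPS vs C498, -0.43 to 0.0100 for Pla2g4a in C498 vs NC, -0.15 to 0.29 for its interaction, -0.34 to 0.10 for Ltc4s and -0.0092 to 0.46 for Hpgds in C498+LPS vs LPS, and -0.0038 to 0.23 for the Alox5ap interaction. The cause was not tested.

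With a replicate block the members called numbered 3 in LPS vs NC (12.6% of all tested genes), 2 in C498 vs NC (7.61%), 3 in C498+LPS vs LPS (7.79%), 3 in C498+LPS vs C498 (6.04%) and 2 for the interaction (0.689%), and no call of a member changed. The replicate numbers are not known to pair samples: the differences between replicates correlated at r of 0.040 to 0.168 between groups. Over all tested genes, centring gave 853 calls higher and 530 lower in LPS vs NC in place of 677 and 814, 565 and 269 in C498 vs NC in place of 687 and 166, and 434 and 196 in C498+LPS vs C498 in place of 307 and 381. The number of reads is unknown, which leaves the counting error of low genes such as Alox15 and Alox5 to the difference between replicates.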
